A study of Homo sapiens with 8 samples.

Results

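The enrichment of RNAs with the nuclear RNA-binding protein hnRNP U was compared between interphase and mitosis, gene by gene, in 8 of the 8 libraries of the series. The quantity described is a difference of differences: the log2(FPKM + 1) in the hnRNP U immunoprecipitate (IP) minus that without IP in mitosis, less the same value in interphase. A positive difference means that the IP effect was larger in mitosis. Of 13471 genes, 3662 (27.2%) had a higher and 2677 (19.9%) a lower IP effect in mitosis than in interphase at a limma adjusted p below 0.05. A gene was counted as switching when its IP effect was called in both phases with opposite signs and the difference was called as well, which 835 genes met (6.2%). Of these, 502 (3.73%) were higher in the IP in interphase and lower in the IP in mitosis, and are called high-to-low genes here. The other 333 (2.47%), lower in the IP in interphase and higher in the IP in mitosis, are called low-to-high genes.

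All samples came from hTERT-RPE1, a human retinal pigment epithelial line immortalized with telomerase. Interphase cells had been held in 2 mM thymidine for 24 h, which stops cells around the start of DNA replication. Mitotic cells received the same 24 h thymidine treatment, were released for 6 h and then spent a night in STLC, an inhibitor of the kinesin Eg5 that holds cells in mitosis with a single spindle pole. In each phase, 2 libraries were made from RNA without IP and 2 from RNA recovered with the anti-hnRNP U antibody 3G6, all depleted of ribosomal RNA, so the 4 groups differ in phase and in IP. All 4 groups carry thymidine treatment and telomerase, the phases differ also in the drug added, and 1 line stands for all cells. No IP with a control antibody was analysed here, and the labels do not say that the 2 libraries of a group came from separate cultures. The p-values therefore measure the spread between these libraries, which may be technical.

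hnRNP U, also called SAF-A, binds RNA through a glycine-rich tail and DNA through a SAP domain, and holds RNA on chromatin in interphase nuclei. In mitosis it is a target of the kinase Aurora B and is known to leave the chromosomes together with RNA. With the nuclear envelope broken down, nuclear RNA-binding proteins and cytoplasmic mRNAs share 1 compartment.

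FPKM, fragments per kilobase of transcript scaled to the size of the library, is a share of each library and not an amount of recovered RNA. The 10 most abundant genes made up 58.4% to 63.0% of the FPKM sum without IP and 12.4% to 20.6% in the IP, a gap between the compared groups whose part in the IP effects was not tested. Replicates correlated with r of 0.989 to 0.995 across genes. The number of fragments per library is unknown from these values. Of 12 markers of retinal pigment epithelium, PMEL and LRAT stayed below 1 FPKM in all 8 libraries, and MITF, OTX2 and RDH5 were above it. The other 7 had no entry by symbol among the 13471 genes. Of 5 epithelial markers, KRT8 and KRT18 stood at 18.5 to 79.2 FPKM, and KRT19, EPCAM and CDH1 had no entry. Of 7 mesenchymal markers, VIM, CDH2, FN1, ACTA2 and THY1 were above 10 FPKM in all 8 libraries. COL1A1 stood at 0.07 to 1.44 FPKM, and COL1A2 had no entry. TERT, the gene introduced into the line, was below 1 FPKM throughout. Of 4 markers of other cell types 1 had a value, the neuronal tubulin TUBB3, at 80.1 to 95.7 FPKM without IP and 20.2 to 32.5 FPKM in the IP. In bulk RNA, fewer cells holding a transcript and less of it per cell cannot be told apart.

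The messages that switched direction differed in what they encode, so a stretch of coding sequence is shown for the 3 named first in each direction. Each is the 150 bases at the middle of the longest coding sequence in the GENCODE 29 annotation of hg38, read in frame 5′ to 3′. Capitals mark codons of the charged residues lysine and glutamate (AAA, AAG, GAA and GAG), whose share over the whole coding sequence is compared further on.
KIF18A: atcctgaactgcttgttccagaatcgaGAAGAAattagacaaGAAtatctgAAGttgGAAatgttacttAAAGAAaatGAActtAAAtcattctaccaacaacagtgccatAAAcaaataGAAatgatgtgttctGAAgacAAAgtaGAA
KTN1: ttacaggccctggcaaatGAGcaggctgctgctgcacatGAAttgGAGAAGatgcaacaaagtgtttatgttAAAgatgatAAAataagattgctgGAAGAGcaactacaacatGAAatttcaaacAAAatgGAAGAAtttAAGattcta
DSP: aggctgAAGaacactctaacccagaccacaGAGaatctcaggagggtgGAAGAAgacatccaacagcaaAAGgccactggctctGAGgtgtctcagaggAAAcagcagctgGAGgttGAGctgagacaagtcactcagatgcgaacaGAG
COQ3: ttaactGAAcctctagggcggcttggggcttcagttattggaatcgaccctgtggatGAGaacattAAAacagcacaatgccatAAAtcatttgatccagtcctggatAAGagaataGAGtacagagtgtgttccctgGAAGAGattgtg
DRG1: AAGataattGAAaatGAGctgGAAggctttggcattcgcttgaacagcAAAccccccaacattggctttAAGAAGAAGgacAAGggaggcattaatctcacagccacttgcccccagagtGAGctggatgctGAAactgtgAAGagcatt
RAE1: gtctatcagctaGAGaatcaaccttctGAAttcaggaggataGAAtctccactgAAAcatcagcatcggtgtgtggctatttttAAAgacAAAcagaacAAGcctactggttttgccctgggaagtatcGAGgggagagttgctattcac
KIF18A, KTN1 and DSP are high-to-low genes, with 14, 13 and 10 marked codons among the 50 shown. COQ3, DRG1 and RAE1 are low-to-high genes, with 8, 12 and 8. These windows overlap between the directions, since DRG1 has more marked codons than DSP. Over the whole coding sequence the marked codons made up 17.04% in KIF18A, 27.5% in KTN1 and 19.02% in DSP. The same share was 13.3% in COQ3, 16.1% in DRG1 and 7.78% in RAE1.

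The genes that were enriched in interphase and depleted in mitosis included kinesins, a desmosome linker and anchors of the endoplasmic reticulum and Golgi. The 10 with the largest effect in both phases were KIF18A, KTN1, DSP, PARP4, MKI67, GOLGA4, FASN, PCM1, RRBP1 and CENPE, taken from 386 that met the conditions on replicate sign, level and an interval shared with no other gene. Their differences ran from -2.52 to -3.39 on the log2(FPKM + 1) scale. These values chose the genes and are given as a description. KTN1 encodes kinectin, an anchor for kinesin on the endoplasmic reticulum, and lies at chr14:55559072-55701526 on the plus strand (hg38). It stood at 90.5 and 64.2 FPKM without IP and 169 and 225 FPKM with IP in interphase. In mitosis KTN1 stood at 80.5 and 74.4 FPKM without IP and at 17.3 and 18.6 FPKM in the IP. Both interphase IP libraries were above, and both mitotic IP libraries below, every library without IP. The IP effect of KTN1 was thus 1.34 in interphase and -2.05 in mitosis, a difference of -3.39 (SE 0.26, 4 residual degrees of freedom).

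KIF18A, the kinesin that damps chromosome movement at metaphase, switched in another way. This gene, at chr11:28020620-28108308 on the minus strand, stood at 9.32 and 7.77 FPKM without IP in interphase and at 21.0 and 25.6 FPKM in the interphase IP. In mitosis KIF18A rose to 56.9 and 60.4 FPKM without IP, while the IP libraries held 21.1 and 22.3 FPKM. Its level in the IP therefore overlapped between the phases (change -0.09, adjusted p = 0.556), and the change lay in the RNA without IP (2.65, adjusted p = 2.33e-06). MKI67, the proliferation marker that coats mitotic chromosomes, showed the same arrangement. It stood at 8.82 and 8.55 FPKM without IP and 28.8 and 20.7 FPKM with IP in interphase, then at 80.4 and 65.4 FPKM without IP and 27.9 and 32.5 FPKM with IP in mitosis. For MKI67 the change between phases was 2.93 without IP and 0.29 in the IP. CENPE, a kinetochore kinesin at chr4:103105806-103198409 on the minus strand, went from 4.37 and 2.48 to 22.9 and 19.2 FPKM without IP. In the IP CENPE stood at 12.5 and 9.81 FPKM in interphase and at 8.06 and 9.63 FPKM in mitosis, a change of -0.30 (adjusted p = 0.245).

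FASN, the fatty acid synthase, was called between phases in the IP and not without it. It stood at 10.2 and 9.61 FPKM without IP in interphase and 8.73 and 7.68 FPKM without IP in mitosis, and the phases differed by -0.25 (adjusted p = 0.469). In the IP, FASN fell from 37.2 and 18.2 FPKM to 2.60 and 3.27 FPKM, and the groups did not overlap. GOLGA4, a coiled-coil tether of the Golgi, fell in the IP from 43.3 and 39.6 FPKM to 4.72 and 5.50 FPKM. Without IP, GOLGA4 stood at 26.9 and 10.6 FPKM in interphase, 2 replicates that lie far apart, and at 22.4 and 17.2 FPKM in mitosis. DSP, which encodes the desmosome linker desmoplakin, stood at 4.37 and 4.55 FPKM without IP and 15.6 and 10.3 FPKM with IP in interphase. Its mitotic values were 12.96 and 7.72 FPKM without IP and 3.46 and 3.54 FPKM with IP. RRBP1, a ribosome-binding protein of the endoplasmic reticulum, combined both changes: it rose without IP by 1.35 and fell in the IP by 1.58. PARP4, the poly(ADP-ribose) polymerase of vault particles, rose without IP by 0.75 and fell in the IP by 1.94, and PCM1, a scaffold of centriolar satellites, rose by 1.23 and fell by 1.28.

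The genes that moved the other way included mitochondrial proteins, membrane proteins of the endoplasmic reticulum and a telomere protein. The 10 named, from 232 that met the conditions, were COQ3, DRG1, RAE1, EMC7, PLIN2, TMEM11, TINF2, CCDC51, SRPRB and GMPR2, with differences of 1.65 to 2.24. COQ3 encodes a methyltransferase of coenzyme Q synthesis and lies at chr6:99369400-99394204 on the minus strand. COQ3 stood at 5.36 and 5.62 FPKM without IP and 2.99 and 2.07 FPKM with IP in interphase. In mitosis COQ3 held 5.53 and 4.78 FPKM without IP and 12.2 and 11.9 FPKM with IP. Levels without IP overlapped between the phases, and the mitotic IP was above every other library. DRG1, a GTP-binding protein that associates with microtubules, stood at 30.0 and 23.9 FPKM without IP and 14.6 and 13.6 FPKM with IP in interphase. In mitosis DRG1 rose to 40.8 and 40.2 FPKM without IP and to 79.9 and 84.3 FPKM in the IP. RAE1, an mRNA export factor that also works at the spindle, lies at chr20:57351010-57379211 on the plus strand. RAE1 stood at 9.27 and 9.08 FPKM without IP and 5.04 and 4.06 FPKM with IP in interphase. Its mitotic values were 9.77 and 12.97 FPKM without IP and 17.3 and 25.6 FPKM with IP.

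TINF2, which encodes the shelterin subunit TIN2, had the largest difference of these 10 at 2.24 (SE 0.16). TINF2 stood at 27.2 and 27.8 FPKM without IP and 8.45 and 10.6 FPKM with IP in interphase, then at 21.1 and 20.8 FPKM without IP and 38.3 and 36.2 FPKM with IP in mitosis. EMC7, a subunit of the membrane protein insertase of the endoplasmic reticulum, rose in the IP from 13.8 and 14.8 FPKM to 62.8 and 49.99 FPKM. Without IP the 4 values of EMC7 lay between 29.4 and 34.9 FPKM. PLIN2, a lipid droplet coat protein, rose in the IP by 1.67, and its phases differed by -0.0039 without IP (adjusted p = 0.987). SRPRB, the membrane-anchored subunit of the signal recognition particle receptor, rose in the IP by 1.49, and TMEM11, a mitochondrial inner membrane protein, by 2.05. CCDC51, a mitochondrial potassium channel subunit, and GMPR2, a GMP reductase, fell without IP by 0.63 and 0.68 and rose in the IP by 1.45 and 1.15. In both sets of 10 the direction in each phase held in each of the 2 replicate pairs, which was a condition of their choice.

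**Figure D1:**
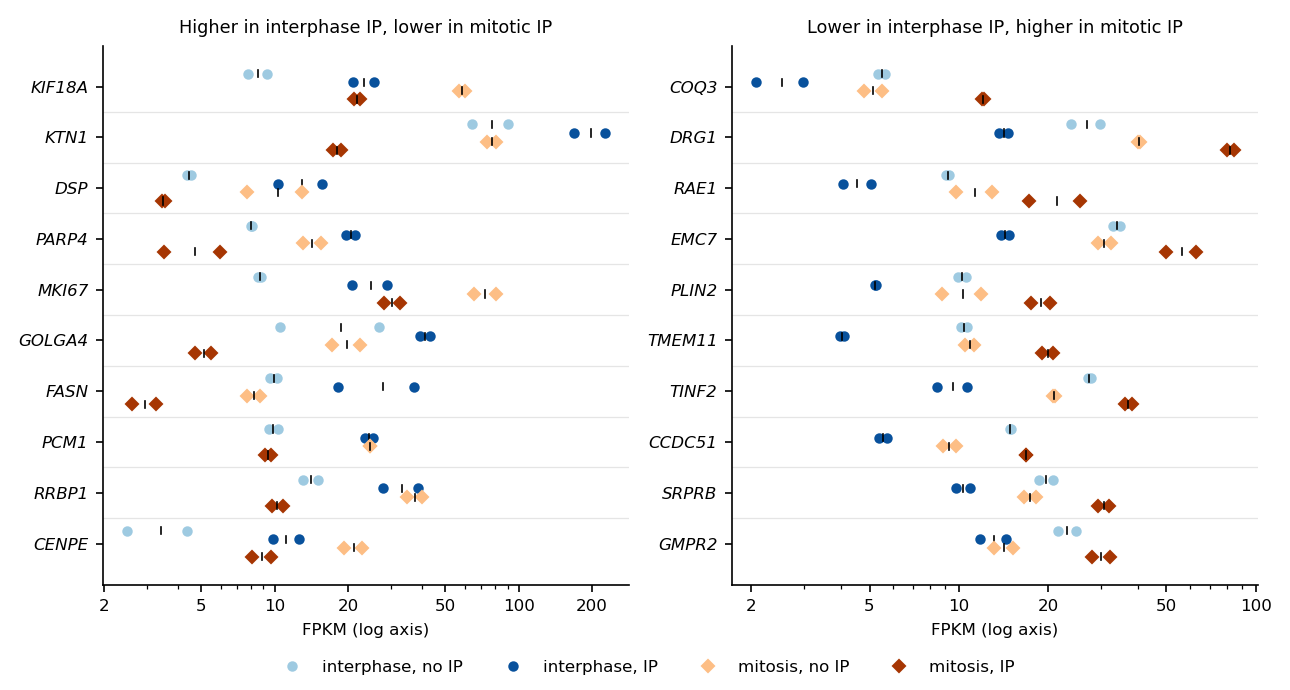
FPKM (log axis) of the 20 named switching genes in each of the 8 libraries, with circles for interphase, diamonds for mitosis, light colours without IP, dark colours with IP, and a bar at each group's mean. On the left the dark circles lie right of the light circles and the dark diamonds left of the light diamonds, as for KTN1 with 169 and 225 FPKM in the interphase IP and 17.3 and 18.6 FPKM in the mitotic IP; on the right the order is the opposite.

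Among all switching genes the change lay more often in the IP than in the RNA without it. Of the 502 high-to-low genes, 440 were lower in the mitotic than in the interphase IP and 8 (BUB1B, HJURP, KAT6A, KIF11, KIF2C, NAV2, TAF1D and TTF2) were higher, where 25.6% of all genes were lower and 35.8% higher in that comparison. Without IP, 268 of the 502 rose in mitosis and 50 fell, beside 26.2% and 25.5% of all genes. Combining both, 206 of the 502 fell in the IP and rose without it as RRBP1 did, beside 488 of all 13471 genes. A further 184 fell in the IP and were not called without it as FASN was, beside 1523 of all genes. Another 54 rose without IP and were not called in the IP as KIF18A was, beside 964 of all genes. The median FPKM of the 502 went from 7.81 without IP and 14.6 with IP in interphase to 11.4 and 6.12 in mitosis. Of the 333 low-to-high genes, 318 were higher in the mitotic IP and 2, NIPSNAP1 and UNG, were lower, while 57 rose and 117 fell without IP. Of these 333, 159 rose in the IP and were not called without it as COQ3 was, beside 1929 of all 13471 genes. A further 102 rose in the IP and fell without it as TINF2 did, beside 810 of all genes. The 57 that rose in both as DRG1 did were a share close to that of all genes, of which 2078 did. The median FPKM of the 333 went from 18.5 without IP and 9.39 with IP in interphase to 16.0 and 24.0 in mitosis. The selection by sign favours such changes, so these counts describe the set and are not tests.

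**Figure D2:**
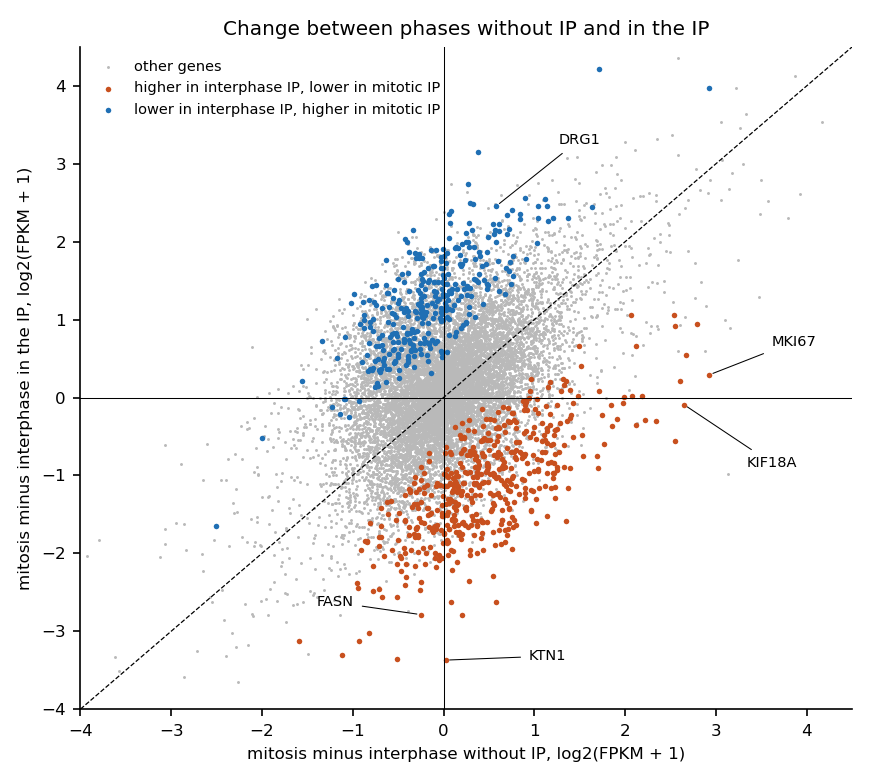
Change between phases in log2(FPKM + 1) without IP (horizontal) and in the IP (vertical) for each gene, with high-to-low genes in orange, low-to-high genes in blue and other genes in grey; the dashed line marks equal change. KIF18A and MKI67 lie to the right, with changes without IP of 2.65 and 2.93, while FASN and KTN1 lie low, with changes in the IP of -2.79 and -3.37.

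Genes called with opposite signs in the 2 phases were a minority of the called differences. Of the 3662 genes with a higher IP effect in mitosis, 1500 were lower in the IP in both phases, 1084 were lower in interphase and not called in mitosis, and 425 were not called in interphase and higher in mitosis. Of the 2677 with a lower effect, 806 were higher in interphase and not called in mitosis, 756 were higher in both phases, and 399 were not called in interphase and lower in mitosis. At any p, 3106 genes (23.1%) had opposite signs in the phases. With a log2 fold change of at least 1 asked for in both phases, 27 high-to-low genes (0.2%) and 0 low-to-high genes were left. The Polycomb gene EED was the last to pass, with a largest adjusted p of 0.0496 over the 3 tests, and the kinase gene CDK20 the first to miss, at 0.0503. The median difference over all genes was 0.07, and 0.08 and 0.06 in the 2 replicate pairs.

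**Figure D3:**
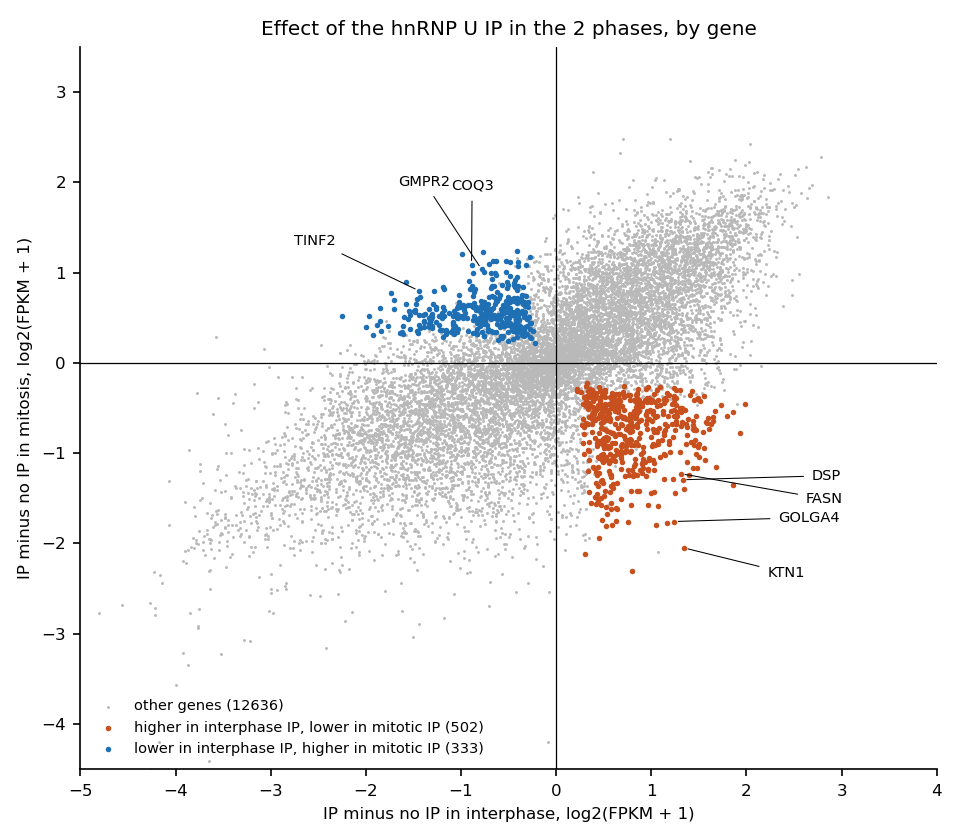
Effect of the IP in interphase (horizontal) against that in mitosis (vertical), both in log2(FPKM + 1), for each gene, with 502 high-to-low genes in orange, 333 low-to-high genes in blue and 8 genes outside the axes. KTN1 lies at 1.34 and -2.05, and most genes lie in the quadrants where both effects have 1 sign.

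High-to-low genes had long coding sequences rich in the lysine and glutamate codons marked above. Over 12112 genes with a coding sequence the median coding length was 1437 bases. It was 2841 bases in high-to-low genes, 1021.5 in low-to-high genes, 1620 in genes higher in the IP in both phases and 1152 in genes lower in both. The coding share of the longest transcript was 58.6% at the median in high-to-low genes, 43.8% in low-to-high genes, 34.0% in genes higher in both phases and 47.0% in genes lower in both. Median transcript GC was 43.4% in high-to-low and 50.1% in low-to-high genes, between the 40.8% of genes higher in both phases and the 57.9% of genes lower in both. The marked codons made up a median of 17.4% of codons in high-to-low genes and 12.01% in low-to-high genes, beside 12.9% over all coding genes. Among genes with a coding length of 1500 to 3000 bases, the codon share was 18.5% in 170 high-to-low genes, 11.9% in 49 low-to-high genes and 12.99% over all. Among genes with a transcript GC of 38% to 45%, it was 18.7%, 12.6% and 14.2%. FASN lay outside this pattern, with 9.32% marked codons and a transcript GC of 65.3%, and GOLGA4 at its far end with 29.2% and 39.4%.

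**Figure D4:**
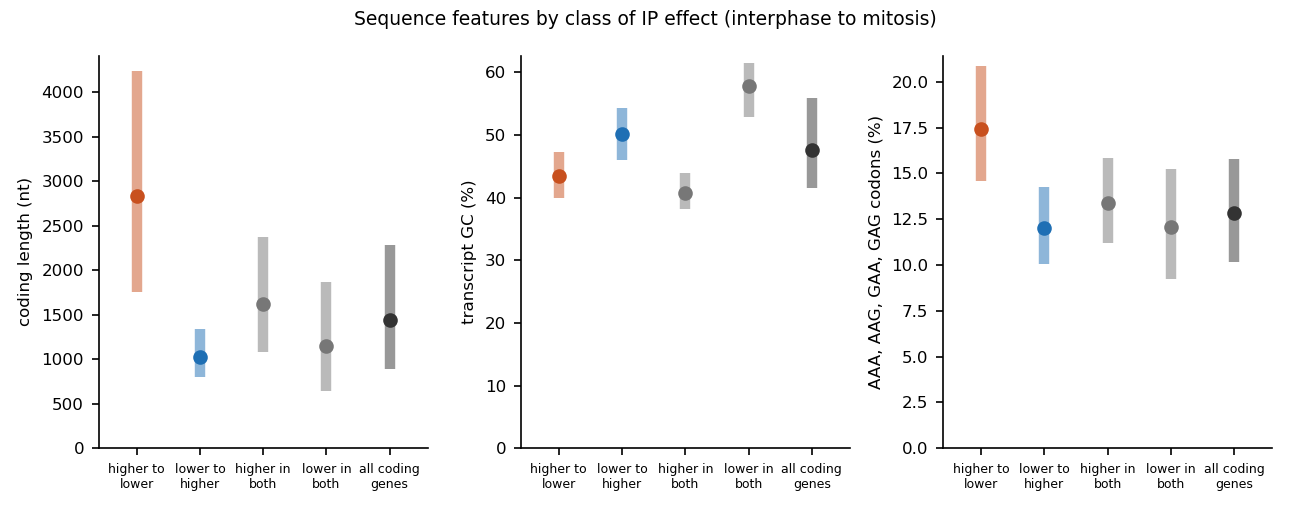
Median (dot) and quartiles (bar) of coding length in bases, transcript GC in percent and share of AAA, AAG, GAA and GAG codons in percent, by class of IP effect from interphase to mitosis. High-to-low genes have the longest coding sequences of the classes, 2841 bases at the median, and the highest codon share, 17.4%.

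Across all 12112 coding genes the difference itself followed transcript length with a Spearman rho of -0.51 and transcript GC with 0.43, as a description over genes that share libraries and GC content. The trends with length and GC were also removed from each library. KTN1, GOLGA4, PCM1 and CENPE then had no called interphase effect (KTN1 -0.04, CENPE -0.07), while 6 of the 10 named high-to-low and 7 of the 10 named low-to-high genes still switched. Over the whole sets, 120 of the 502 and 129 of the 333 still switched. The difference was still called in the same direction in 471 of 501 high-to-low genes and in 303 of 330 low-to-high genes with a length and GC value. Among these switching genes, chosen for a called difference, the sign within a phase thus moved with this correction more than the difference between phases did. Over all genes called for the difference, 2390 of the 3662 higher and 1534 of the 2677 lower were called in the same direction with the trends removed. Genes without a length and GC value could not be kept in that count. KTN1, for one, kept a difference of -2.75, and FASN -2.48.

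The share of switching genes is given by gene type and chromosome as a description, with no test. Of 12124 protein-coding genes, 493 (4.07%) were high-to-low and 321 (2.65%) low-to-high, beside 2 and 5 of 530 long noncoding genes. Chromosome 19, whose genes are GC-rich, held the smallest share, 0.664% high-to-low and 0.442% low-to-high of 904 genes. Chromosome 10 held the largest high-to-low share, 6.79% of 545 genes, and chromosome 14 the largest low-to-high share, 5.04% of 456 genes. Every autosome and chromosome X held genes of both directions, such as RRBP1 and RAE1 on chromosome 20.

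Gene lists shifted in opposite ways, and their counts are set beside the 27.2% of all genes called higher and the 19.9% called lower. Most cytoskeletal linkers and motors had a lower IP effect in mitosis than in interphase. Of 25 large cytoskeletal linkers and motors, 23 were called lower and 0 higher, with a median difference of -1.59, and 10 switched: ANK2, DSP, FLNC, MYH10, MYH9, PLEC, SPTAN1, SPTBN1, TLN1 and UTRN. SPTAN1, the alpha chain of spectrin, stood at 8.55 and 7.84 FPKM without IP and 44.7 and 23.2 FPKM with IP in interphase. In mitosis SPTAN1 stood at 14.1 and 11.5 FPKM without IP and 3.53 and 5.38 FPKM with IP, a difference of -3.21 (SE 0.39, adjusted p = 0.000313). The intervals of SPTAN1 and TLN1 overlap other genes, so their values are less certain. DMD, which encodes dystrophin, went with the others in interphase (1.06) but kept 0.69 in mitosis, and its difference of -0.37 was not called (adjusted p = 0.237). Of 24 golgins and membrane tethers, 20 were called lower and 2 higher, with a median of -1.56. The 2 higher ones, P4HB (0.51) and GCC1 (0.57), lost their call without mitotic replicate 1 (P4HB 0.53) or 2 (P4HB 0.50, GCC1 0.43) of the RNA without IP, interphase replicate 1 (GCC1 0.52) or 2 (P4HB 0.44, GCC1 0.63) without IP, mitotic IP replicate 1 (P4HB 0.46, GCC1 0.49) or interphase IP replicate 2 (GCC1 0.52). The 10 that switched were CCDC88A, CLIP1, GOLGA4, GOLGA5, GOLGB1, KTN1, ROCK1, ROCK2, RRBP1 and TRIP11.

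Of 16 kinesin genes, 12 were called lower and 1 higher, with a median difference of -1.56. Without IP, 15 of the 16 rose in mitosis and 0 fell (median change 2.16), beside 26.2% and 25.5% of all genes. In the IP, 9 rose and 5 fell (median change 0.76), beside 35.8% and 25.6% of all genes. The list was drawn up as mitotic kinesins but is not limited to them. In it 7 switched from high to low: KIF11, KIF15, KIF18A, KIF20B, KIF2C, KIF3B and KIF5B. KIF11 encodes Eg5, the motor that STLC blocks, and its IP effect was 0.78 in interphase and -0.85 in mitosis. KIF20B, a kinesin of cytokinesis, stood at 10.6 and 7.12 FPKM without IP and 36.02 and 32.6 FPKM with IP in interphase, then at 58.2 and 58.2 FPKM without IP and 36.8 and 42.7 FPKM with IP in mitosis. KIF23, the centralspindlin motor, stayed enriched in both phases (0.94 and 0.77, adjusted p of the difference 0.575). The higher call among kinesins was KIF22, a chromosome-arm motor (0.54, adjusted p = 0.0388). It was lost without interphase replicate 1 (0.46) or 2 (0.62) or mitotic replicate 1 (0.53) or 2 (0.54) of the RNA without IP, and without IP replicate 2 of interphase (0.37) or mitosis (0.46). Of 48 spindle-associated and centrosomal genes, 34 were called lower and 4 (KNSTRN, RACGAP1, TUBG1 and TUBGCP2) higher, with a median of -1.13. In this list 12 switched from high to low. Without IP, 39 of the 48 rose in mitosis and 3 fell (median change 1.29), while in the IP 18 rose and 17 fell (median change 0.006). HMMR, a spindle assembly factor of that list, stood at 9.19 and 8.97 FPKM without IP and 15.8 and 17.3 FPKM with IP in interphase. HMMR then stood at 58.6 and 57.5 FPKM without IP and 10.3 and 11.6 FPKM with IP in mitosis, the largest drop of the list at -3.11 (SE 0.14, adjusted p = 4.83e-05). KNSTRN, a kinetochore-localized spindle protein, was called in the list above at 0.57, and after leaving out 1 library only without mitotic replicate 2 of the RNA without IP or mitotic IP replicate 1 (0.42 to 0.59 without each of the others). The 11 tubulins had no lower call and 6 higher calls, with a median of 0.43. TUBA1B, a main alpha-tubulin, stood at 548 and 490 FPKM without IP and 146 and 156 FPKM with IP in interphase, but at 358 and 361 against 315 and 352 FPKM in mitosis. With length and GC trends removed the tubulin median was -0.11.

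Kinetochore genes went both ways: 16 of 45 were called lower and 11 higher, with a median of -0.22. The large outer-kinetochore and checkpoint proteins BUB1B, CENPE and CENPF were high-to-low, as were HJURP, SGOL1 and ZW10, while MAD2L1 and OIP5 were low-to-high. The difference of ZW10, -1.03, was -0.83 and not called without interphase replicate 2 of the RNA without IP. In the chromosomal passenger complex, which holds Aurora B, the scaffold INCENP was high-to-low. INCENP stood at 3.64 and 3.96 FPKM without IP and 7.04 and 5.54 FPKM with IP in interphase, and at 20.01 and 16.3 FPKM without IP and 6.16 and 6.46 FPKM with IP in mitosis. AURKB, the kinase itself, was lower in the IP in both phases, by 1.53 in interphase and 0.88 in mitosis. Its difference of 0.64 (adjusted p = 0.0345) lost its call without interphase replicate 1 of the RNA without IP (0.53), interphase IP replicate 2 (0.47), mitotic IP replicate 1 (0.56) or mitotic replicate 2 without IP (0.52), and turned to -0.21 with length and GC trends removed. BIRC5 and CDCA8, the 2 other members, had differences of 0.39 and -0.23 that were not called (adjusted p = 0.0635 and 0.184).

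The chromatin lists, like that of the cytoskeletal linkers, held more lower than higher calls. Of 44 chromatin remodellers and Polycomb genes, 35 were called lower and 1 higher, with a median difference of -1.19. SUZ12, a subunit of the Polycomb complex that methylates histone H3, stood at 22.7 and 23.2 FPKM without IP and 85.2 and 95.5 FPKM with IP in interphase. In mitosis SUZ12 stood at 23.8 and 25.1 FPKM without IP and 13.8 and 13.9 FPKM with IP, a difference of -2.70 (SE 0.14, adjusted p = 4.83e-05). EED, its smaller partner in the same complex, went the other way. EED stood at 4.79 and 4.93 FPKM without IP and 4.19 and 3.27 FPKM with IP in interphase. In mitosis EED stood at 3.69 and 3.42 FPKM without IP and 6.76 and 6.48 FPKM with IP. Its interphase effect was not called without a pseudocount (-0.39, limma adjusted p = 0.0507). With length and GC trends removed its mitotic effect was not called (0.03, limma adjusted p = 0.891). The difference of EED stayed called in these settings, at 1.29 and 1.24. Of 22 condensin and cohesin genes, 14 were called lower and 2, CDCA5 and NCAPH2, higher (median -1.06), and the ATPases SMC1A, SMC2 and SMC3 were high-to-low. CDCA5, which encodes the cohesin protector sororin, moved up instead, with a difference of 1.16. In DNA repair 20 of 46 genes were called lower and 6 higher (median -0.41, but 0.15 with length and GC trends removed). RBBP8, the end-resection factor CtIP, was high-to-low: 28.9 and 28.7 FPKM without IP and 55.6 and 66.7 FPKM with IP in interphase, 18.5 and 21.3 FPKM without IP and 4.66 and 5.41 FPKM with IP in mitosis.

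Other lists held calls in both directions, as all genes did, with 27.2% called higher and 19.9% lower. Their higher shares, 28.3% to 32.1%, lay near that of all genes, whereas their lower shares, 32.1% to 37.7%, lay above it. In the spliceosome list of 53 genes, 20 (37.7%) were called lower and 15 (28.3%) higher. The helicase SNRNP200 and the large core protein PRPF8 switched from high to low with differences of -2.54 and -2.31. SNRPB, a small Sm protein, switched from low to high: it stood at 160 and 133 FPKM without IP and 32.9 and 27.2 FPKM with IP in interphase, and at 189 and 192 FPKM without IP and 267 and 280 FPKM with IP in mitosis, a difference of 2.77. Among 47 DNA replication genes, 17 (36.2%) were called lower and 15 (31.9%) higher. POLE, the catalytic subunit of polymerase epsilon, and the checkpoint mediator CLSPN had differences of -1.97 and -1.94, whereas GINS2 of the replicative helicase and POLD2 of polymerase delta had 1.67 and 2.08. Among 54 translation initiation factors, 18 (33.3%) were called lower and 17 (31.5%) higher. EIF4G3, a scaffold of the cap complex, was high-to-low with -2.02. EIF4EBP1, a repressor of the cap-binding factor eIF4E, moved by 1.98 while lower in the IP in both phases. Of 28 chaperone genes, 9 (32.1%) were called lower and 9 (32.1%) higher. HSP90AA1 stood at 85.5 and 69.6 against 95.8 and 82.8 FPKM in interphase and at 193 and 211 against 53.5 and 61.6 FPKM in mitosis, while the chaperonin subunit CCT7 stood at 93.1 and 76.6 against 34.5 and 32.6 FPKM and then at 102 and 109 against 141 and 166 FPKM. In each pair the values without IP come first.

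Among aminoacyl-tRNA synthetases, 6 of 20 genes (30%) were called in each direction and 0 switched. Of all genes, 27.2% were called higher, 19.9% lower, and 6.2% switched. RARS, which charges arginine tRNA, was enriched with the IP in interphase and more strongly in mitosis: 47.5 and 43.6 FPKM without IP and 90.2 and 88.4 FPKM with IP in interphase, 55.3 and 55.7 FPKM without IP and 204 and 207 FPKM with IP in mitosis. AARS, which charges alanine tRNA, went from 18.6 and 15.6 against 23.6 and 18.9 FPKM to 26.0 and 28.5 against 9.55 and 10.8 FPKM. Of 43 ribosome biogenesis genes, 21 (48.8%) were called lower and 9 (20.9%) higher (median -0.47), with NOC3L at -1.93 and NHP2 at 1.63. In nonsense-mediated decay and RNA turnover, 17 of 38 (44.7%) were called lower and 9 (23.7%) higher. The median was -0.39, but 0.09 with length and GC trends removed. The decay factor UPF2 had a difference of -1.99 and the exosome subunit EXOSC4 one of 2.01.

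Oxidative phosphorylation genes were mostly less depleted from the mitotic IP than from the interphase IP. Of 79 oxidative phosphorylation genes, 70 were called higher and 0 lower, with a median difference of 1.32. From interphase to mitosis, 64 of the 79 fell and 3 rose without IP (median change -0.66), beside 25.5% and 26.2% of all genes. In the IP, 63 rose and 3 fell (median change 0.70), beside 35.8% and 25.6% of all genes. The list was lower in the IP in 72 genes in interphase and in 60 in mitosis, where 37% and 31.7% of all genes were, so most members lost part of a depletion and 4 switched (ATP5F1, NDUFA9, NDUFB5 and NDUFV2). COX4I1, a subunit of cytochrome c oxidase, stood at 298 and 293 FPKM without IP and 29.02 and 32.5 FPKM with IP in interphase, and at 183 and 195 FPKM without IP and 97.9 and 95.5 FPKM with IP in mitosis, a difference of 2.27 (SE 0.16). SDHA and SDHC, the largest subunit and a membrane subunit of succinate dehydrogenase, were the lowest of the list at -0.29 and -0.39 and were not called. Of 76 mitochondrial ribosomal protein genes, 58 were called higher and 1, MRPL19, lower, with a median of 1.06. Of these 76, 38 fell and 2 rose in mitosis without IP, while 53 rose and 4 fell in the IP. Without interphase replicate 1 of the RNA without IP, or mitotic replicate 2 without IP, the MRPL19 difference of -0.54 was -0.52 or -0.50 and not called. Of 83 cytosolic ribosomal protein genes, 55 were called higher and 1 lower (median 1.00). Of these 83, 40 fell and 4 rose in mitosis without IP, while 43 rose and 8 fell in the IP. RPL38 stood at 1170 and 1409 FPKM without IP and 68.7 and 82.9 FPKM with IP in interphase, and at 520 and 644 FPKM without IP and 174 and 159 FPKM with IP in mitosis. The lower call was RPL4, whose interval overlaps other genes, with 418 and 472 against 469 and 628 FPKM in interphase and 274 and 270 against 103 and 97.4 FPKM in mitosis. Of 41 proteasome genes, 28 were called higher and 0 lower (median 0.80), and PSMA4, PSMA6, PSMB8 and PSME3 were low-to-high.

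Metabolic and stress lists also held more higher than lower calls for the difference. Their median changes between phases without IP were -0.74 (cholesterol synthesis), -0.30 (glycolysis) and -0.57 (stress responses). In the IP these medians were 0.03, 0.07 and 0.05. Of 23 cholesterol synthesis genes, 14 were called higher and 1 lower (median 0.63). Of 17 glycolysis genes, 9 were called higher and 2, HK2 and PFKP, lower (median 0.70, and PFKP not called without interphase replicate 2 of the RNA without IP, -0.50). LDHB, a lactate dehydrogenase subunit, was low-to-high, at 566 and 494 against 310 and 336 FPKM in interphase and 352 and 459 against 584 and 765 FPKM in mitosis. With quantile normalization the LDHB difference of 1.44 was 1.25 and not called. Of 22 genes of the unfolded protein and integrated stress responses, 12 were called higher and 2, ATF6 and EDEM1, lower (median 0.50), and the transcription factor ATF4 was low-to-high (0.87, but not called with quantile normalization, 0.36, or with the length and GC trends removed, 0.22). EDEM1 was not called without interphase replicate 1 (-0.53) or mitotic replicate 1 (-0.57) of the RNA without IP.

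Replication-dependent histone genes had the largest differences upward, and here the RNA fell in mitosis in the IP as well as without it. Of 37 core histone genes, 36 were called higher and 0 lower, with a median difference of 2.41, and 37 of 37 fell in mitosis both without IP and in the IP. HIST1H3H, a histone H3 gene, stood at 953 and 996 FPKM without IP and 82.0 and 75.8 FPKM with IP in interphase. In mitosis HIST1H3H stood at 4.96 and 3.81 FPKM without IP and at 2.77 and 2.48 FPKM in the IP. The interphase depletion of 3.61 was thus 0.56 in mitosis, at levels near the pseudocount of 1 FPKM that compresses such effects. HIST2H2BF, an H2B gene, was at 0.323 and 0.128 FPKM without IP and 0.653 and 0.351 FPKM in the IP in mitosis. HIST1H4C, an H4 gene with more RNA left, went from 1936 and 2351 against 162 and 189 FPKM to 54.0 and 68.0 against 13.5 and 12.1 FPKM, a difference of 1.44 (SE 0.23, adjusted p = 0.00118). With quantile normalization HIST1H4C was not called (0.47). The list median was 2.08 without a pseudocount, where HIST1H2AJ was no longer called (2.60, adjusted p = 0.075).

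Genes without a switch whose IP effect was much lower in mitosis than in interphase included DYNC1H1, KIF4A, AKAP9 and HSP90AA1. DYNC1H1 and AKAP9 were called higher in the interphase IP and not called in mitosis, whereas KIF4A and HSP90AA1 were not called in interphase (0.34 and 0.20) and were called lower in the mitotic IP (-1.94 and -1.79). DYNC1H1, the heavy chain of cytoplasmic dynein, went from 11.4 and 12.5 against 58.5 and 38.5 FPKM in interphase to 8.88 and 8.94 against 4.95 and 7.82 FPKM in mitosis, a difference of -2.35 (SE 0.31, adjusted p = 0.000454). KIF4A, a chromosome-bound kinesin, rose without IP from 5.03 and 4.17 to 42.4 and 37.7 FPKM and in the IP from 6.55 and 5.63 to 10.9 and 8.61 FPKM. The message of hnRNP U itself, HNRNPU, was enriched in the interphase IP, at 31.8 and 32.4 FPKM without IP against 59.5 and 59.5 FPKM with IP. In mitosis HNRNPU stood at 46.2 and 47.2 against 47.7 and 54.4 FPKM, a difference of -0.75 (SE 0.14, adjusted p = 0.00248) that became 0.05 (adjusted p = 0.78) with length and GC trends removed.

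The remaining lists are set against the 27.2% of all genes called higher and 19.9% called lower. Of 455 zinc finger genes named ZNF, 72 (15.8%) were called higher and 81 (17.8%) lower, and the median difference was -0.01. Most of them, 287 in interphase and 258 in mitosis, were higher in the IP, where 37.6% and 32.8% of all genes were. ZNF638 (-2.30) and ZNF668 (2.12) were the extremes, and 6 switched in each direction. Of 203 solute carriers, 61 were called higher and 20 lower. Of 30 hnRNP genes, 9 (30%) were called lower, HNRNPM furthest at -1.72, and 2 (6.7%) higher, HNRNPLL (0.77) and the pseudogene HNRNPA1P10, which can share reads with its parent gene and was called with 2 of the 8 libraries left out in turn, those being interphase replicate 1 without IP and mitotic IP replicate 1 (0.26 to 0.39 without each of the others). Of 33 mitotic cyclin, kinase and anaphase-promoting complex genes, 16 (48.5%) were called higher and 3 (ARPP19, ESPL1 and WEE1, 9.1%) lower. The call was lost without interphase replicate 1 or mitotic replicate 2 of the RNA without IP or mitotic IP replicate 2 for ARPP19 (-0.67 to -0.58) and ESPL1 (-0.79 to -0.58), without mitotic replicate 1 without IP for ARPP19 (-0.65), and without interphase replicate 2 without IP (-0.70) or IP replicate 1 of interphase (-0.47) or mitosis (-0.64) for ESPL1. Among 171 small nucleolar and Cajal body RNA genes, 16 (9.4%) were called lower and 3 (SNORA58, SNORD116-14 and SNORD1C, 1.8%) higher, but 150 of them share an interval with another gene and their values are uncertain. SNORD1C was not called without interphase replicate 2 of the RNA without IP (0.93).

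**Figure D5:**
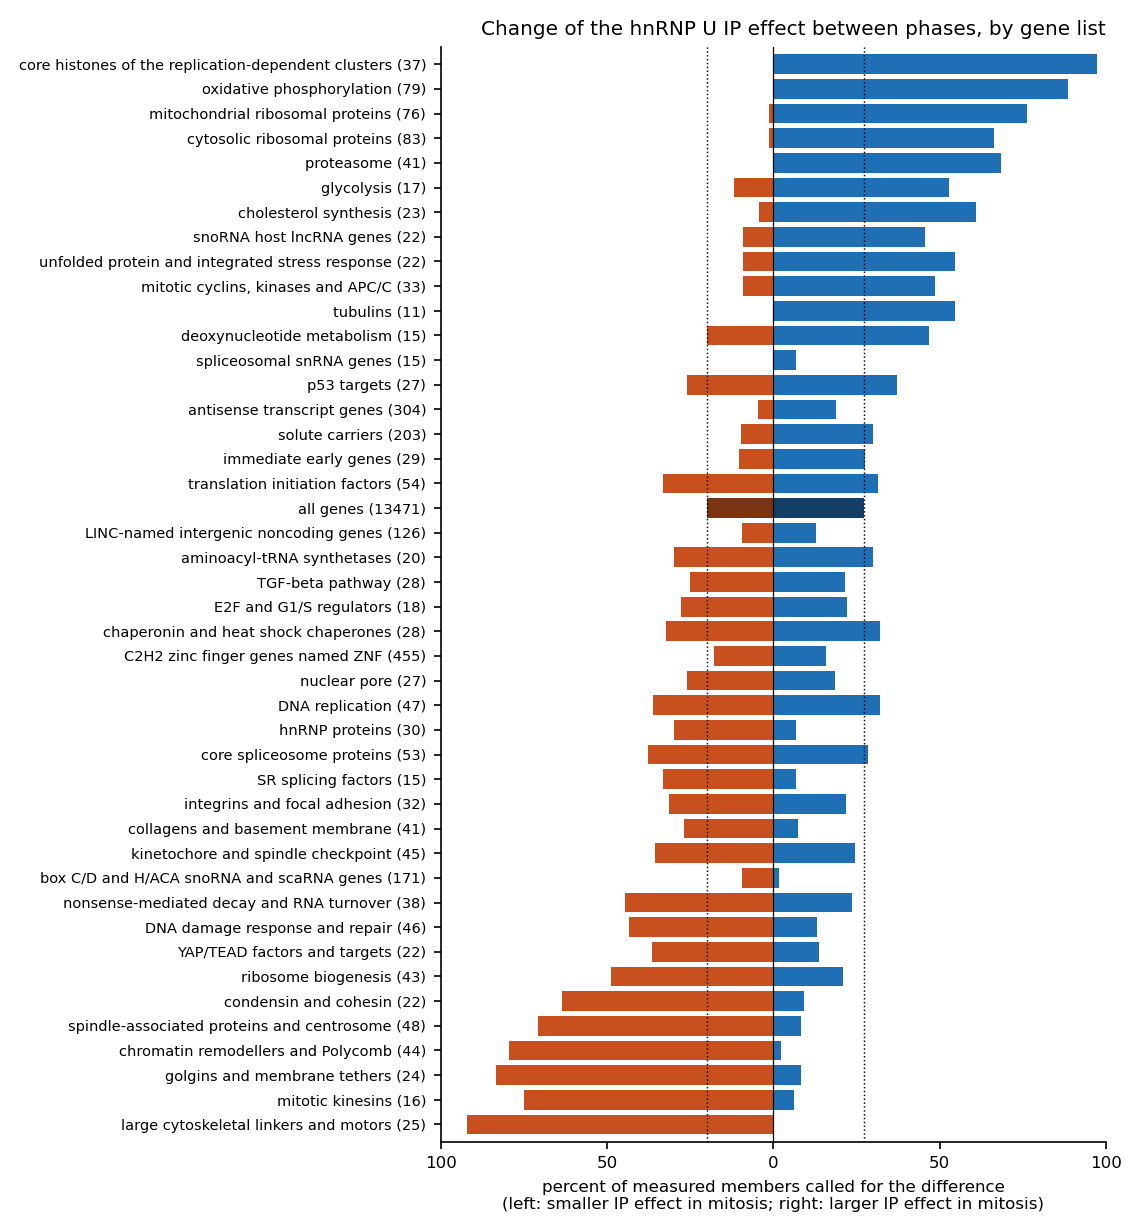
Percent of the measured members of each list with at least 10 members (number in brackets) called for the difference, to the left for a smaller and to the right for a larger IP effect in mitosis; dotted lines mark the 19.9% and 27.2% of all genes. Core histones and oxidative phosphorylation stand at the top, with 36 of 37 and 70 of 79 called higher, and large cytoskeletal linkers and motors at the bottom, with 23 of 25 called lower.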

How the data were processed

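RNA was sequenced from 8 libraries of hTERT-RPE1 cells, 2 in each of 4 groups. The deposited values are FPKM per gene on hg38, made by the authors with TopHat and StringTie per the submitters' processing notes, which give no versions or settings in the sources used here. Fragment counts and the way libraries were scaled are not given in the sources used here, so no count test was run and an FPKM value is relative to its library. A second table, of long noncoding RNAs on hg19, was not used here.

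Values were taken as log2(FPKM + 1). One model with a coefficient per group (4 residual degrees of freedom) was fitted over 13471 genes with limma 3.58.1 in R 4.3.3 with a trended prior, no filter on low values and Benjamini-Hochberg adjustment over all genes, at 0.05. The table holds 0 values of 0. The calculation was tested on simulated data with known changes. Transcript length, GC, coding sequences and coordinates came from GENCODE 29 (97.6% of genes matched: 12678 by symbol, 467 by an older symbol); 2873 genes (21.3%) share an interval with another gene of the table. Codon shares and coding lengths use the longest annotated coding sequence, which need not be the isoform expressed.

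Named switching genes are, per direction, the 10 with the largest smaller effect of the 2 phases, among those with 1 sign in both replicate pairs in each phase, no shared interval and a mean of at least 5 FPKM in a group. Non-switching genes are the 5 largest differences per direction by the same conditions. From each list the 2 largest and 2 smallest differences are eligible, with switching members named where their list needs them. A few genes that meet these rules are not reported here. Genes and lists were chosen with earlier results of these data known. List counts and medians are descriptions without a test of the list. Alternatives tried were pseudocounts of 0.1 and none, a filter at a mean of 1 FPKM, median centring, quantile normalization, a replicate block, no trended prior, removal of length and GC trends, a minimum log2 fold change of 1, and leaving out each library.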

Additional observations from a re-analysis of the deposited data

Results flagged for a closer look

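The IP effect differed between interphase and mitosis by the limma test of that difference in 3662 genes, where it was higher in mitosis, and in 2677 genes, where it was lower. Among them, 502 genes were higher in the interphase IP and lower in the mitotic IP, and 333 the reverse. The named genes of the first kind had differences, in log2(FPKM + 1), of -2.74 (KIF18A), -3.39 (KTN1), -2.62 (DSP), -2.69 (PARP4), -2.63 (MKI67), -3.00 (GOLGA4), -2.54 (FASN), -2.52 (PCM1), -2.94 (RRBP1) and -2.65 (CENPE). With length and GC trends removed the same genes stood at -2.39 (KIF18A), -2.75 (KTN1), -2.12 (DSP), -2.28 (PARP4), -2.12 (MKI67), -2.30 (GOLGA4), -2.48 (FASN), -1.80 (PCM1), -3.06 (RRBP1) and -1.90 (CENPE).

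The named genes of the second kind had differences of 1.98 (COQ3), 1.88 (DRG1), 1.73 (RAE1), 2.03 (EMC7), 1.67 (PLIN2), 2.00 (TMEM11), 2.24 (TINF2), 2.08 (CCDC51), 1.65 (SRPRB) and 1.82 (GMPR2). With length and GC trends removed they stood at 1.62 (COQ3), 1.46 (DRG1), 1.73 (RAE1), 1.46 (EMC7), 1.29 (PLIN2), 1.33 (TMEM11), 1.72 (TINF2), 1.30 (CCDC51), 1.57 (SRPRB) and 1.46 (GMPR2). No group held enough libraries for a check on single outlying libraries.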

How the results depend on the processing

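The counts of genes higher (3662) and lower (2677) for the difference, and of high-to-low (502) and low-to-high (333) genes, stayed within 1.5 times under both other pseudocounts, the filter at 1 FPKM, median centring, a prior without a trend, the replicate block and quantile normalization, which turned the split to 3209 higher and 3354 lower. With length and GC trends removed, 3562 genes were higher, of which 2390 were among the 3662. Lower genes numbered 2163, of which 1534 were among the 2677. High-to-low genes numbered 306, of which 120 were among the 502, and low-to-high genes 482, of which 129 were among the 333. Asking for a log2 fold change of at least 1 left 1806 higher, 1075 lower, 27 high-to-low and 0 low-to-high genes. Leaving out 1 library gave 2962 to 3397 higher, 2109 to 2567 lower, 381 to 491 high-to-low and 226 to 314 low-to-high genes.

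Removing length and GC trends moved the median difference of all genes from 0.07 to 0.12. Among called differences it turned the sign for HNRNPU (0.051), H1FX (-0.29), KIF22 (-0.0057), AURKB (-0.21), HNRNPA1P10 (-0.27) and PRR7-AS1 (-0.44). The tubulin median turned as well (-0.11). Differences that were not called also turned, among them DMD (0.36), SDHC (0.33) and KIF23 (0.12). The cause was not tested. Replicate numbers are shared by the groups, but nothing in the labels says that they mark a batch. With 2 replicates per group, deviations of same-numbered libraries correlated at 0.09 to 0.53 across genes. Adding that number as a replicate block gave 3988 higher, 2925 lower, 549 high-to-low and 386 low-to-high.

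With 2 libraries per group, no control-antibody IP analysed and unknown depth, low genes are the least certain.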
